A study of Mus musculus with 4 samples.

Results

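The genes Phox2a, Tbx20, Tbx2, Tbx3, Gata2 and Gata3 encode transcription factors linked to visceral motor neurons and to V2b interneurons. They were taken by name from a table of normalized read counts, and all 6 were found among its 11747 rows. The libraries came from motor neuron cultures of mouse embryonic stem cells, and nothing was measured per cell. In bulk RNA of this kind, fewer cells of a type and less RNA per cell cannot be told apart.

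Every culture derived from 1 engineered stem cell line of A172LoxP origin that carries a transcription factor transgene under doxycycline control, so the cells without doxycycline carry it too. Floating aggregates called embryoid bodies received 0.5 µM all-trans retinoic acid and 1 µM purmorphamine, a Sonic hedgehog agonist, for 2 days. The groups then differed in 2 µg/mL doxycycline against vehicle over a further 2 to 3 days. There were 2 libraries with doxycycline, numbered 2 and 8 in the table, and 2 without it, numbered 1 and 7. No source used here says whether libraries of a group were separate cultures. A p-value thus reflects how far libraries of a group lay apart, with a variance partly shared across rows, and that spread may be technical.

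Visceral motor neurons control glands, heart and smooth muscle, and share ventral hindbrain progenitors with branchial motor neurons. Phox2a is a paired-type homeodomain factor of autonomic circuits, of noradrenergic neurons and of the nuclei that move the eye. Tbx20, Tbx2 and Tbx3 are T-box factors. Tbx20 acts in the heart and in cranial motor neurons, while Tbx2 and Tbx3 are mainly repressors, best known from heart, limb and gland development. Gata2 and Gata3 bind GATA sites through zinc fingers and specify V2b neurons, the inhibitory relatives of the excitatory V2a interneurons. The comparison with and without doxycycline looks for genes that the induced factor regulates, and these 6 genes mark fates that neighbour somatic motor neurons and V2a cells.

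The sequence before the start site is shown for 3 of these genes, to give the promoters behind the rows that are described below. RefSeq on GRCm38.p6 gave windows for 4 of the 6 genes by symbol (Phox2a, Tbx20, Gata2 and Gata3), 5 windows in all. The 250 bases before each start were read 5′ to 3′ on the gene's strand and searched on both strands for the homeodomain core TAATTA, the GATA core GATAA and the T-box core GGTGTGA. Capitals mark a match.
Phox2a promoter window: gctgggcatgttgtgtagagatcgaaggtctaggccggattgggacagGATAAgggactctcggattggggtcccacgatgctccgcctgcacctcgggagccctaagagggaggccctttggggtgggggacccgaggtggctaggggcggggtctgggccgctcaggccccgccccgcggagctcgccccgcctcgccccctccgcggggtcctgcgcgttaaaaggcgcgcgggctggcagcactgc
Tbx20 promoter window: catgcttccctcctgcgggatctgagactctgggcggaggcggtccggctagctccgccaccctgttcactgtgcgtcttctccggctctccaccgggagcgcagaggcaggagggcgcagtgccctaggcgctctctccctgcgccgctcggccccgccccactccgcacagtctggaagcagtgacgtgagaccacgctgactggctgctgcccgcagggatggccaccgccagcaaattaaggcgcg
Gata2 promoter window: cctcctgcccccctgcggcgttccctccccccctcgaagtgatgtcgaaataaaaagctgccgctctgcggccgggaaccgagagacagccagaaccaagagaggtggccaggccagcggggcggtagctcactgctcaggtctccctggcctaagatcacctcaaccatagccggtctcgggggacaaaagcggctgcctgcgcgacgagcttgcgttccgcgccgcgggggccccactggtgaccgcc

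The Phox2a window lies at chr7:101818063-101818312 on the plus strand, the Tbx20 window at chr9:24774304-24774553 on the minus strand and the Gata2 window at chr6:88193641-88193890 on the plus strand. These 3 windows touch no annotated exon. The 5 windows were rich in G and C, at 67.2% to 74.0%, where the median of all 32851 windows was 52.4%. The only match was 1 GATAA in the Phox2a window. Over all windows GATAA occurred in 22.6%, TAATTA in 4.84% and GGTGTGA in 3.33%, so finding few is a description of these letters and no more. Tbx2 lies on chromosome 11 and Tbx3 on chromosome 5.

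The Gata2 and Gata3 coding sequences are related, and reads from a long identical stretch could be placed on either gene. In the longest coding sequences of the GENCODE annotation the longest run they share is 17 bases, at bases 946 to 962 of Gata2 (chromosome 6) and 1012 to 1028 of Gata3 (chromosome 2).
Shared Gata2 and Gata3 run: tgcaatgcctgtgggct

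Exons of other genes lie over 95 of the 2035 exon bases of Phox2a (Inppl1, opposite strand) and over 115 of the 6624 exon bases of Tbx3 (Tbx3os1, opposite strand). For Gata3 it is 232 of 3978 bases, shared with Gm13256 on the opposite strand and 9230102O04Rik on the same strand. No source used here states if reads were counted by strand, and reads of these stretches cannot be told apart.

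None of the 6 genes passed the test for a doxycycline difference. A limma fit with the column numbers as a block called Tbx2 (adjusted p = 1.75e-08) and Gata3 (adjusted p = 0.0207), with 3508 rows called in all. No source used here describes these numbers as pairs. The block leaves fewer residual degrees of freedom, and its p-values rest on a variance shared across rows. They reached 9.14e-172 for the pan-neuronal marker Nefm, which the spread of 4 libraries alone cannot give, so they are not weighed as evidence. The test without the block was limma's moderated test on log2(normalized count + 1), with p-values adjusted over all rows by the Benjamini-Hochberg method and a threshold of 0.05. It called 2.37% of all rows, and at an unadjusted p under 0.05 it held for 21.1% of rows and for 0 of the 6 genes. No second tool was run on these values. The point estimate was below 0 for 5 genes, against 49.4% of all rows, and above 0 for Phox2a, with a median of -0.25 over the 6 genes and 0.0024 over all rows. Only Gata3 had groups that did not overlap, which held for 53.2% of rows in either direction.

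**Figure D1:**
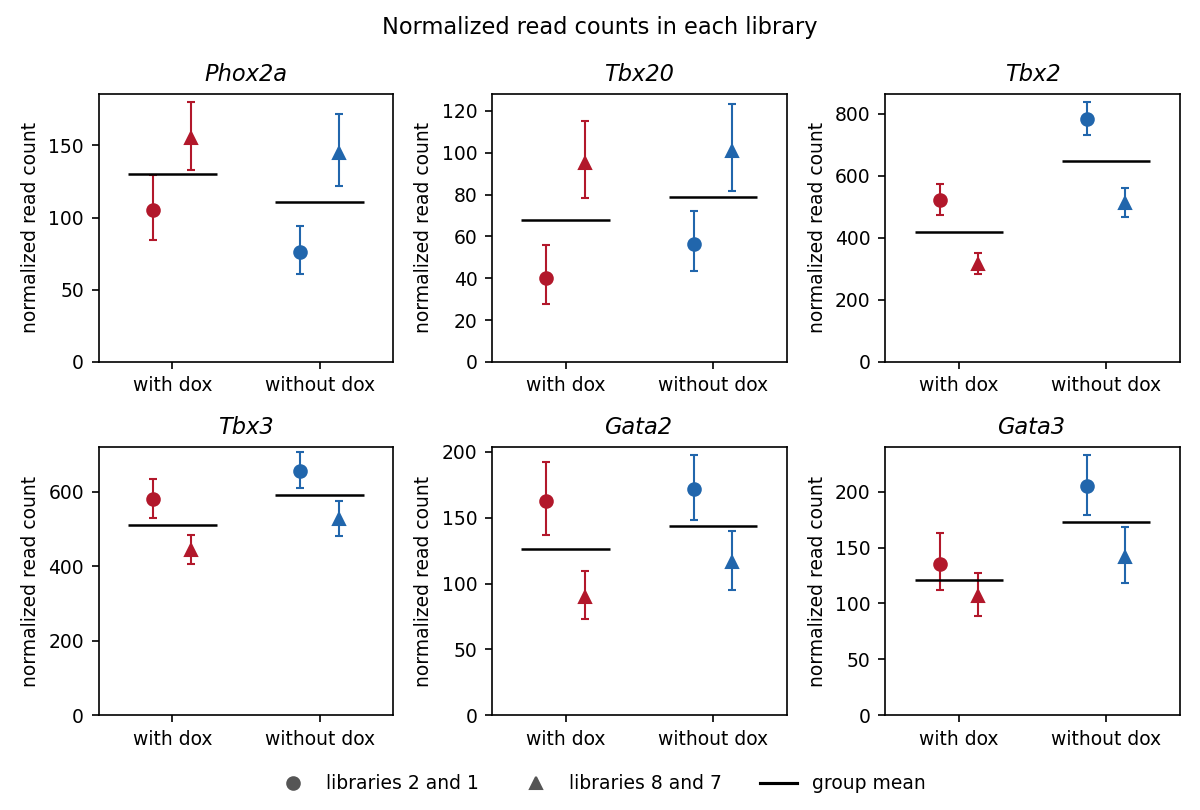
Normalized read counts (linear axis from 0) of the 6 genes in each library, with doxycycline on the left and without it on the right of each panel. Bars are exact 95% Poisson intervals from estimated reads and cover counting error only; black lines are group means. In 5 panels the triangles (libraries 8 and 7) lie on one side of both circles (libraries 2 and 1), and in the Gata3 panel 1 triangle lies between the circles.

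Libraries 7 and 8 stood apart from 1 and 2 in these genes. Values in 7 and 8 were all above or all below those in 1 and 2 for 5 of the 6 genes, while 32.6% of all rows showed this. Phox2a and Tbx20 were higher in 7 and 8, as were 16.5% of rows, and Tbx2, Tbx3 and Gata2 were lower, as were 16.1%. The median size of this log2 difference was 0.69 over the 6 genes and 0.092 over all rows. That comparison is with rows of all levels, while Gata2, Gata3, Phox2a and Tbx20 were within the lowest 7.0% of rows by mean count. Every listed row reached 101 estimated reads in at least 1 library. Phox2a met that in libraries 7 and 8 alone and Tbx20 in library 8 alone. The listing thus favoured high values there in these genes, and their direction is a description only. The numbers are column numbers, and the sources used here do not say what they stand for. What these column numbers reflect was not tested, and the fit with them as a block is given above.

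Phox2a had 105 and 155 normalized counts in libraries 2 and 8 with doxycycline, against 76.0 and 145 in libraries 1 and 7 without it. The groups overlapped, since library 7 lay above library 2. The means were 130 ± 35.6 with and 110 ± 48.8 without doxycycline (SD, n = 2 each). The log2 difference was 0.28 ± 0.37 (SE; limma, adjusted p = 0.711), with a 95% interval of -0.62 to 1.18, or from 0.649-fold to 2.27-fold. Library 2 exceeded library 1 by 0.46 on the log2 scale and library 8 exceeded library 7 by 0.10. The sign turned without library 8 (-0.00072) or 1 (-0.18). These values rest on 85 to 176 estimated reads per library.

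Tbx20 had the fewest reads of the 6 genes. It had 40.1 and 95.3 normalized counts with doxycycline, against 56.3 and 101 without it. Library 2 was the lowest and rests on 34 estimated reads, with an exact Poisson 95% interval of 23.5 to 47.5 reads, while the other libraries had 63 to 108. The log2 difference was -0.28 ± 0.50 (limma, adjusted p = 0.795), with an interval of -1.51 to 0.95. Its standard error was larger than that of 99.5% of rows, and its mean level was in the lowest 0.281% of rows. The table lists a row only where at least 1 library reached 101 estimated reads, and Tbx20 met that in library 8 alone. Changes within that interval could not be told from no change with these libraries, and larger ones could also be missed after adjustment. The sign turned without library 2 (0.33) or 7 (0.13).

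Tbx2 had the largest point estimate of the 6 genes. It had 522 and 316 normalized counts with doxycycline, against 784 and 511 without it. The groups overlapped by a narrow margin, since library 2 with doxycycline lay just above library 7 without it. The means were 419 ± 146 with and 647 ± 193 without doxycycline (SD, n = 2 each). The log2 difference was -0.64 ± 0.29 (limma, adjusted p = 0.285) and its interval ran from -1.36 to 0.085. Library 2 against library 1 gave -0.58, and library 8 against library 7 gave -0.69. Without library 8 the difference was -0.28 and without library 1 it was -0.33, and without library 2 or 7 it was -1.0 or -0.95, all without a call. The estimate is larger in size than that of 95.8% of rows, and the spread within each group was of like size.

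Tbx3, the closest relative of Tbx2, had 581 and 443 normalized counts with doxycycline, against 657 and 527 without it. Again library 2 lay above library 7, so the groups overlapped. The log2 difference was -0.21 ± 0.17 (limma, adjusted p = 0.534), with an interval of -0.64 to 0.21. Library 2 against 1 gave -0.18 and library 8 against 7 gave -0.25. The ratio of Tbx2 to Tbx3 counts within a library does not depend on library scaling. It was 0.899 and 0.713 with doxycycline, against 1.19 and 0.969 without it. The 2 groups of ratios did not overlap, but with 2 libraries against 2 an exact permutation test cannot go below p = 0.333. Groups did not overlap in the Gata2 to Gata3 ratio or in the Phox2a to Tbx20 ratio either. The Phox2a to Tbx20 ratio was 2.62 and 1.63 with doxycycline, against 1.35 and 1.44 without it. For single rows, groups that did not overlap were seen in 53.2%, counting both directions. The share over ratios of gene pairs was not counted, and no interval was set on a ratio.

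Gata2 had 163 and 89.97 normalized counts with doxycycline, against 172 and 116 without it. The spread within each group was wider than the gap between groups. The log2 difference was -0.22 ± 0.34 (limma, adjusted p = 0.763), with an interval of -1.07 to 0.63. Library 2 against 1 gave -0.076 and library 8 against 7 gave -0.36. The sign turned without library 8 (0.20) or 1 (0.061).

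Gata3 had 136 and 107 normalized counts with doxycycline, against 205 and 142 without it, and both libraries with doxycycline lay below both without it. The gap between the groups was small, 136 in library 2 against 142 in library 7. The log2 difference was -0.50 ± 0.25 (limma, adjusted p = 0.316), with an interval of -1.11 to 0.11. It was -0.33 without library 8, -0.23 without library 1 and -0.76 without library 7, again without a call. Groups apart in this direction were seen in 26.5% of rows. The ratio of Gata2 to Gata3 counts was 1.2 and 0.843 with doxycycline, against 0.838 and 0.818 without it. Library 2 alone was above 1, and the groups of ratios did not overlap, though library 8 lay just above library 1.

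**Figure D2:**
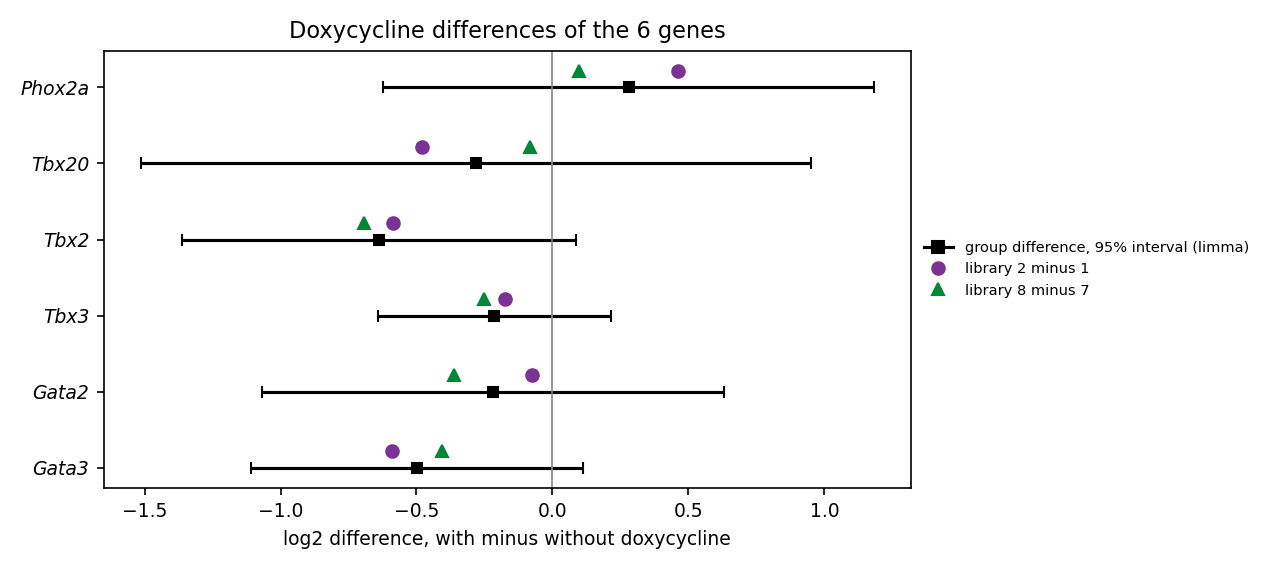
Log2 differences with minus without doxycycline for the 6 genes. Squares with bars are limma estimates with 95% intervals, circles are library 2 minus 1 and triangles library 8 minus 7. Every interval includes 0, Phox2a lies at 0.28 and Tbx2 lowest at -0.64.

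Within neighbouring column numbers the 6 genes kept 1 sign each. For Tbx20, Tbx2, Tbx3, Gata2 and Gata3 library 2 was below library 1 and library 8 below library 7, as in 36.5% of rows. For Phox2a both were above, as in 37.1% of rows. The sizes were uneven in Tbx20, at -0.48 and -0.083, and in Phox2a, at 0.46 and 0.098.

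**Figure D3:**
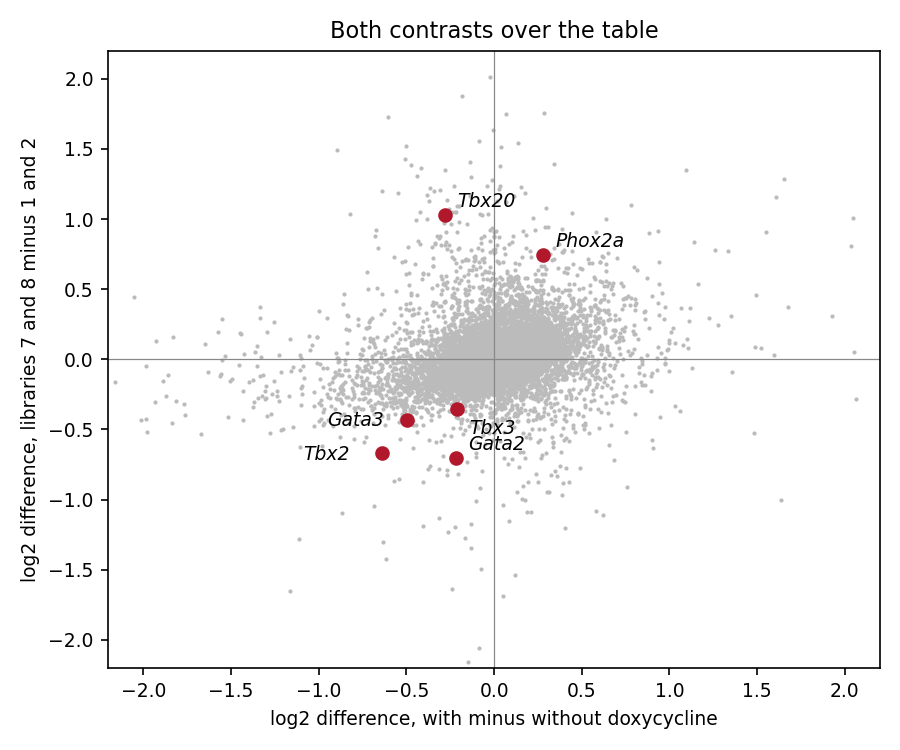
Each point is a row of the table, with its log2 difference with minus without doxycycline (horizontal) and libraries 7 and 8 minus 1 and 2 (vertical); 19 rows lie outside the axes. The 6 genes, in red, lie far from 0 on the vertical axis, Tbx20 at 1.03 and Gata2 at -0.70.

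In order of size, libraries 7 and 8 differed from 1 and 2 by 1.03 on the log2 scale for Tbx20, 0.74 for Phox2a, -0.70 for Gata2, -0.67 for Tbx2, -0.43 for Gata3 and -0.35 for Tbx3. Each was larger in size than that of at least 91.9% of rows, where rows of all levels were compared. For all genes but Gata3 the difference between numbers was larger in size than the doxycycline estimate, though for Tbx2 by little. In Tbx20 it corresponds to 2.04-fold.

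Levels were compared between genes per kilobase of coding sequence, on the assumption that reads were counted over it, which the sources used here do not state. With doxycycline the mean level per kilobase was highest for Tbx3, at 230, followed by Tbx2 at 196, Phox2a at 154, Gata3 at 91.0, Gata2 at 87.6 and Tbx20 at 50.6. Without doxycycline the mean level was 266 for Tbx3, 303 for Tbx2, 131 for Phox2a, 130.0 for Gata3, 99.6 for Gata2 and 58.8 for Tbx20. On this scale the libraries of Tbx2 and Tbx3 overlapped in both groups, as did those of Gata2 and Gata3. Phox2a lay above Gata3 in both libraries with doxycycline but overlapped it without. Tbx20 lay below every other gene without doxycycline and overlapped Gata2 with it. By mean normalized count Gata2, Gata3, Phox2a and Tbx20 were all within the lowest 7.0% of rows, while Tbx2 and Tbx3 stood at 30.2% and 31.0%.

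The rows whose pattern over the 4 libraries was most like each gene were found by the root mean square distance between centred log2 values. Over only 4 libraries many rows can lie this close, so this is a description. For Tbx20 they were Fgf10 (distance 0.029), which encodes a growth factor, Sparc (0.040) and Lamb1 (0.042), which encode extracellular matrix proteins of basement membranes. Sparc had 44540 and 102700 normalized counts with doxycycline, against 57690 and 107100 without it. For Phox2a they were Adamts15 (0.064), a secreted protease gene, and the transporter genes Slco2a1 (0.068) and Slc16a10 (0.072).

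For Tbx2 the nearest rows were Cntn1 (0.094), an adhesion molecule gene of axons, Pcdhb7 (0.097), a protocadherin gene, and Accn1 (0.11), an acid-sensing ion channel gene. For Tbx3 they were Rab39b (0.018), Pcdhb6 (0.022) and Zc4h2 (0.024). For Gata3 they were Adcy2 (0.017), an adenylyl cyclase gene, Ebf3 (0.020), a transcription factor gene of young neurons, and Rims3 (0.028), a presynaptic gene. Ebf3 had 1755 and 1394 normalized counts with doxycycline, against 2671 and 1903 without it. For Gata2 they were Mybl1 (0.041), Abcb1b (0.073) and Esrrb (0.079), a nuclear receptor gene of pluripotent cells.

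**Figure D4:**
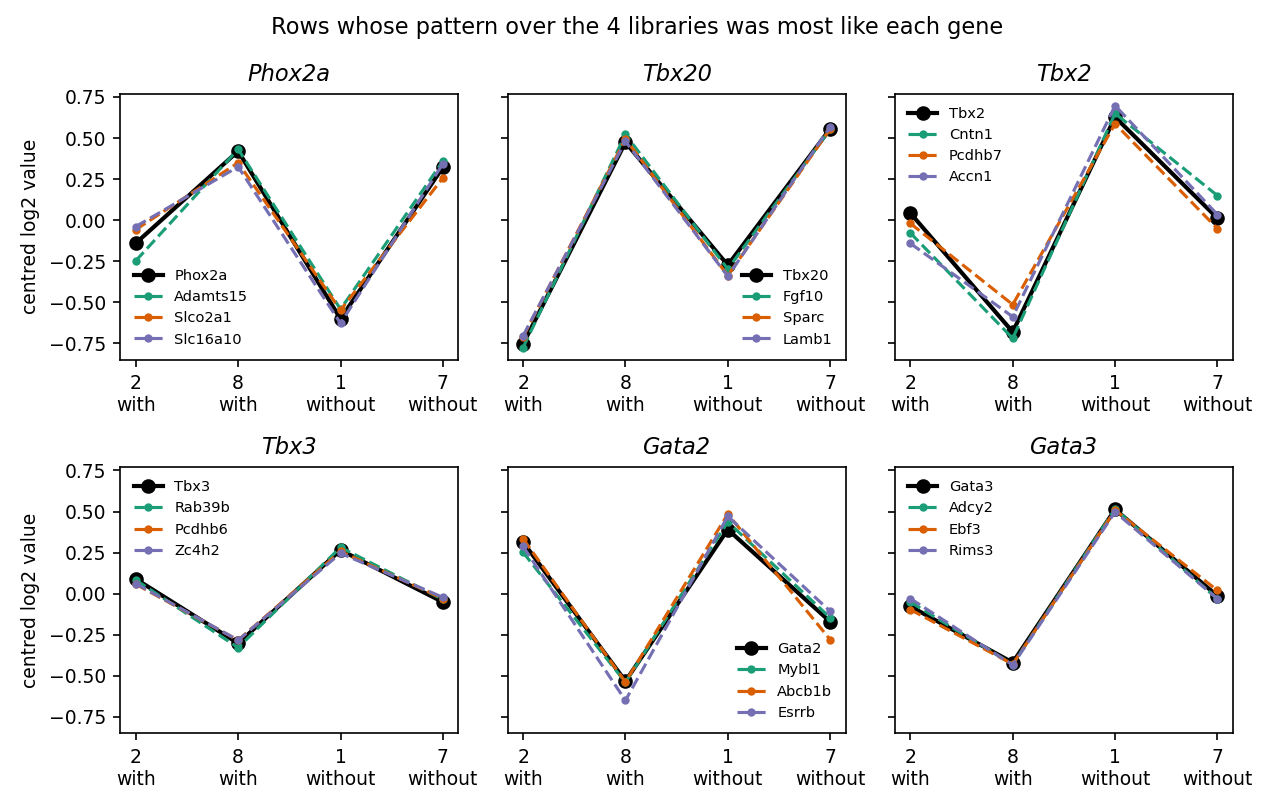
Log2(normalized count + 1) centred on the mean of the 4 libraries for each of the 6 genes (black) and the 3 rows nearest to it (colours), in libraries 2 and 8 with and 1 and 7 without doxycycline. Tbx20 and Sparc share low values in libraries 2 and 1, while Gata3 and Ebf3 share the highest value in library 1.

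Markers of other cells that could hold these transcripts were read beside the 6 genes. Of 10 primitive endoderm markers 7 were listed, and their summed level was 59053 and 126110 normalized counts with doxycycline, against 77621 and 135070 without it. Most of this sum was Lama1, a laminin gene, which made up 84.2% and 85.3% of it with doxycycline and 84.3% and 85.4% without. All 7 genes were higher in libraries 7 and 8 than in 1 and 2, as were 16.5% of all rows, and this is a description only. The endoderm factor gene Gata4 had 3382 and 6476 with doxycycline, against 4460 and 7239 without it. Afp, Apoa1 and Ttr were among the genes not listed. Foxa2, an endoderm and floor plate factor gene, had 755 and 1283 with doxycycline, against 560 and 1032 without it. None of the 7 passed the test, where 2.37% of all rows did, and the median log2 difference was -0.25. Of 11 heart and mesoderm markers 4 were listed, Tbx20 and Isl1 among them, with sums of 4804 and 7499 with and 7371 and 9871 without doxycycline. Gata4, also in the endoderm list, made up 70.4% and 86.4% of that sum with doxycycline and 60.5% and 73.3% without. The heart genes Nkx2-5, Myh6, Myl7 and Tnnt2 were not listed, which does not show that they were absent. Isl1 alone of the 4 fell, where 1.79% of all rows did. The part of these cells in the Tbx20 values was not tested.

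All 9 pluripotency markers were listed, and Tbx3, which pluripotent stem cells also express, is in that list. None passed, where 2.37% of all rows did, and the median was -0.21. Pou5f1, a core pluripotency factor, had 243 and 101 normalized counts with doxycycline, against 307 and 141 without it, and was lower in 7 and 8. Of the 9 genes 6 were lower in 7 and 8 than in 1 and 2, and 3 were higher (Klf4, Sall4 and Lin28a). Over all rows 16.1% were lower and 16.5% higher. Klf4, another pluripotency factor gene, had 432 and 769 normalized counts with doxycycline, against 617 and 873 without it. Summed over the list the level was 5980 and 6149 with doxycycline, against 6719 and 6827 without it. Of 11 trophoblast markers 5 were listed, including Gata2, Gata3 and the keratin genes Krt8 and Krt18, and none passed. Their sum was 14007 and 9868 with doxycycline, against 11000 and 9020 without it. Krt8 alone made up 46.7% and 51.4% of that sum with doxycycline and 49.6% and 53.4% without. The trophoblast factor genes Cdx2, Elf5 and Tfap2c were not listed. Of 12 blood and endothelial markers 4 were listed, none passed, and Gata1, Tal1 and Ptprc were not listed. That list summed to 653 and 730 with doxycycline, against 963 and 1006 without it. The part of these cells in the Gata2, Gata3 and Tbx3 values was not tested.

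The wider V2b and GATA complex list had 13 of 22 genes in the table. Over all rows 1.79% fell, 0.579% rose and 49.4% lay below 0. Among the 13 listed genes 1 fell, 0 rose, 7 had values above 0 and 6 below 0, and the median was 0.11. The gene that fell was Lmo1, a LIM-only bridging factor gene, with 83.7 and 48.5 normalized counts with doxycycline, against 270 and 252 without it. Its log2 difference was -2.02 ± 0.29 (limma, adjusted p = 0.0355), and the call was lost without library 8 (adjusted p = 0.0701) or 1 (adjusted p = 0.0691). Lhx1, a LIM-homeodomain factor of several inhibitory interneuron types, was at -0.97 ± 0.19 and missed the threshold (limma, adjusted p = 0.0636). Sox1 was at 0.50 ± 0.10 (limma, adjusted p = 0.0740) and the LIM-only gene Lmo3 at 1.13 ± 0.30 (limma, adjusted p = 0.118).

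Ldb1, which joins LIM-only proteins into GATA complexes, had a value of -0.14 ± 0.06, and its partner gene Lmo4 one of -0.16 ± 0.08. The E-protein genes Tcf3, Tcf4 and Tcf12 lay between 0.11 and 0.14. Lmo4, Ldb1 and the E-protein genes did not pass the test. Dll4, a Notch ligand gene, had 121 and 118 normalized counts with doxycycline, against 80.4 and 74.1 without it, and did not pass (limma, adjusted p = 0.172). Tal1, the usual V2b partner of the GATA factors, and the inhibitory transmitter genes Gad1, Gad2, Slc32a1 and Slc6a5 were not listed. A row was listed only where at least 1 library reached 101 estimated reads. That these V2b genes were not listed beside Gata2 and Gata3 thus does not show that they were absent.

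The visceral and branchial motor neuron list had 11 of 13 genes in the table, and 4 of them are the genes described here. Among the 11, 1 rose and 1 fell, against 0.579% and 1.79% of all rows, and the median was -0.21. Nkx2-2, which marks the progenitors next to the floor plate, had 383 and 613 normalized counts with doxycycline, against 52.7 and 92.3 without it. It rose by 2.78 ± 0.34 on the log2 scale (limma, adjusted p = 0.0251), a call lost without library 8 (adjusted p = 0.108). Isl1, a LIM-homeodomain factor of all motor neurons, fell to 739 and 437 normalized counts with doxycycline, against 2331 and 2183 without it. Its difference was -1.99 ± 0.24 (limma, adjusted p = 0.0241). The call held without any single library but not with robust empirical Bayes (adjusted p = 0.0525) or no intensity trend (adjusted p = 0.0676). The progenitor genes Nkx2-9 (2.04 ± 0.48; limma, adjusted p = 0.0924) and Nkx6-2 (1.16 ± 0.28; limma, adjusted p = 0.101) did not pass. Rgs4 and Nos1 were not listed.

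Phox2a, Gata2 and Gata3 also belong to the programme of noradrenergic neurons, of whose list 11 of 17 genes were in the table. In that list 1 fell and 0 rose, against 1.79% and 0.579% of all rows, with a median of -0.15. Th, the enzyme that starts catecholamine synthesis, had 356 and 205 normalized counts with doxycycline, against 918 and 917 without it. It fell by 1.76 ± 0.25 on the log2 scale (limma, adjusted p = 0.0355). That call also held without any single library, but not under those other variance settings (adjusted p = 0.051 and 0.0829). Dbh, the enzyme that makes noradrenaline, was not listed. Hand2 was at 0.39 ± 0.23 and did not pass. Of 10 serotonergic markers 5 were listed, with Fev, Tph2 and Slc6a4 not listed, and Nkx2-2 alone rose.

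Tbx2, Tbx3 and Tbx20 were 3 of the 4 listed genes of the T-box family. The other was Mga, at 0.11 ± 0.08 (limma, adjusted p = 0.476). None of the 9 listed GATA family and co-factor genes passed, and their median was -0.039. Gata6 was at -0.30 ± 0.36 and Zfpm1, a co-factor gene of GATA proteins, at 0.053 ± 0.09. Of 7 genes that Tbx2 or Tbx3 repress in other cells 6 were listed and none passed, with a median of 0.19. Cdkn1a, which encodes the cell cycle inhibitor p21, was at 0.19 ± 0.11, and its relative Cdkn1b was at -0.25 ± 0.08 (limma, adjusted p = 0.178).

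Markers of somatic motor neurons were read in the same libraries. Of 10 such markers 9 were listed and 8 fell, with a median of -1.57, and the list summed to 6379 and 5520 normalized counts with doxycycline, against 15082 and 14274 without it. Of 9 listed pan-neuronal markers 7 fell, with a median of -0.86, but 3 were called without library 8 and 4 with no intensity trend. Over all rows 0.579% rose and 1.79% fell. The standard errors of the 6 genes, 0.17 to 0.50, were above the median of 0.098 over all rows, and each was larger than that of at least 84.0% of rows.

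**Figure D5:**
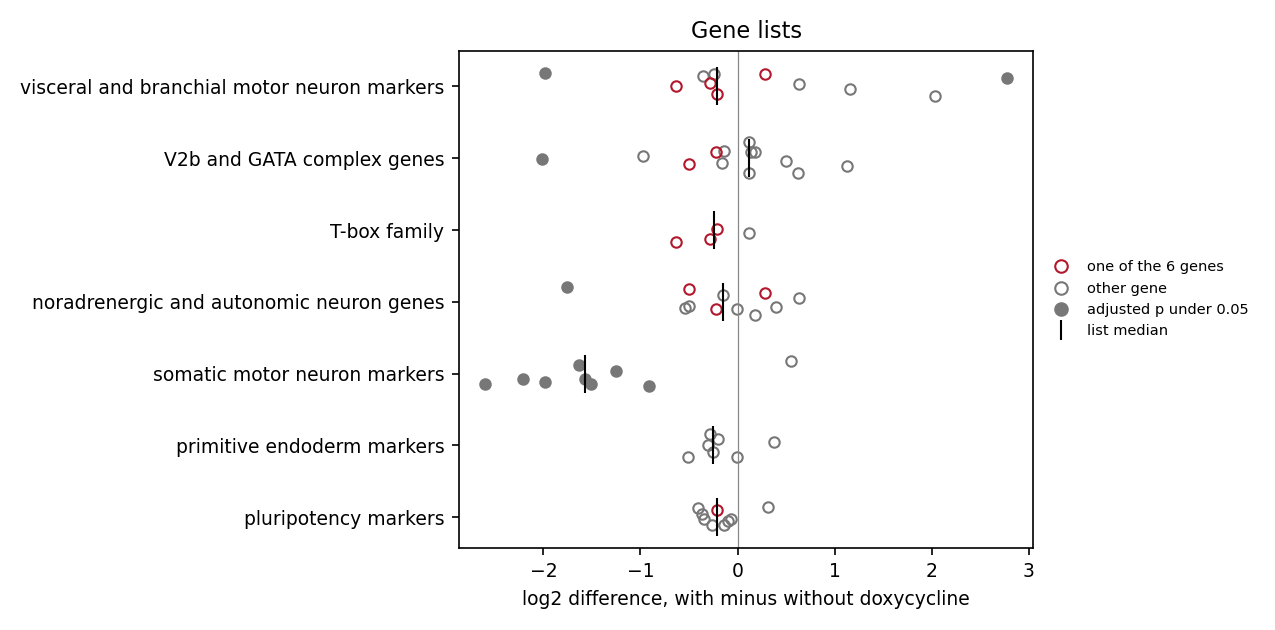
Log2 differences with minus without doxycycline for the listed genes of 7 gene lists. Filled points passed the limma test at an adjusted p under 0.05, red points are the 6 genes and bars are list medians. The red points are all open and lie between -0.64 and 0.28, while most somatic motor neuron markers are filled and lie below 0.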

How the data were processed

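RNA of 4 libraries was sequenced after Illumina TruSeq preparation, per the labels' protocols. Tools named in the submitters' processing notes are TopHat2, HTSeq, CASAVA and DESeq, with build mm9 and no versions, roles or order. The deposited values are a signal per gene, normalized read counts totalling 26449600 to 27047500. All values of a column (100%, tolerance 0.1) are whole multiples of a step of 0.882 to 1.18, taken as 1 read, which gives 22434755 to 30235763 estimated reads. No count model was run on these estimates. Poisson intervals (95%) cover counting error only, since reads are not independent molecules.

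Columns were given a group by the initials of the treatment label and were matched to no single sample. A pseudocount of 1 and a row mean of at least 10 were used, and no row was removed. limma 3.58.1 in R 4.3.3 tested all 11747 rows with an intensity trend, two-sided, with 2 residual and 3.83 prior degrees of freedom. The step was tested on simulated data. Python 3.11.15 and pandas 2.3.3 handled tables.

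The genes, lists and tests were chosen with earlier results of these data known. Named genes were the 6, the 3 nearest rows of each (mean at least 50), and of each list the called genes and up to 4 others with small p; further names were chosen after their values were seen. The induced gene and some listed genes are not reported here. Symbols came from the table for 11335 rows and by RefSeq accession for 375. Coding lengths and exons are from GENCODE M21 on GRCm38, which differs from mm9, so no coordinates of the files are given. Alternatives were other pseudocounts, filters, scalings and variance settings, a block and each library left out.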

Additional observations from a re-analysis of the deposited data

How the results depend on the processing

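Apart from the block on column numbers, none of the 13 alternatives called any of the 6 genes. With 1 library left out, the groups being 2 against 1 with the lone library taken to vary like the rest, Gata2 lay between -0.64 and 0.20, Phox2a between -0.18 and 0.74, and Tbx20 between -0.90 and 0.33. Each of these 3 changed sign in 2 of the 4 such fits. Tbx2 lay between -1.0 and -0.28, Tbx3 between -0.41 and -0.018, and Gata3 between -0.76 and -0.23, without a change of sign or a call. No other setting changed a sign. The signs of Phox2a and Gata2 turned without library 8 (-0.00072 and 0.20) or 1 (-0.18 and 0.061), and that of Tbx20 without library 2 (0.33) or 7 (0.13).

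A replicate block by column numbers in limma, 1 with 2 and 7 with 8, called Tbx2 (-0.64, adjusted p = 1.75e-08) and Gata3 (-0.50, adjusted p = 0.0207). It called 3508 rows in place of 278. Its p-values rest on a variance shared across rows and not on each gene's own spread. The column numbers are not the labels' replicate numbers, and the sources used here do not say that they pair libraries. Over all rows the log2 difference of library 8 from 2 correlated with that of 7 from 1 (r = 0.63, across genes, which are not independent replicates). The number of called rows was also 105 with no intensity trend and 419 with robust empirical Bayes, and 44, 494, 113 and 133 without library 8, 7, 2 and 1. The cause was not tested. With no intensity trend the calls of Isl1, Th, Lmo1 and Nkx2-2 were lost (adjusted p = 0.0676, 0.0829, 0.0681 and 0.0636), with robust empirical Bayes those of Isl1 and Th (0.0525 and 0.051), and with quantile normalization that of Lmo1 (0.0506). Counting error alone left Tbx20 at 27.8 to 56.0 normalized counts in library 2 and 78.1 to 115 in library 8 (exact 95% Poisson intervals), so these libraries of a group differed by more than counting error.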
